A study of Mus musculus with 2 samples.

Results

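The genes described here are 40 regulators of chromatin, of which 21 encode subunits of the SWI/SNF remodeling complexes and 19 encode Polycomb proteins, histone-modifying enzymes or CHD remodelers. They were chosen by name, and a member was taken as bound where the list of Isl1 peaks from mouse embryos gave its symbol as the gene with the closest transcription start site (TSS). By this rule 24 of the 40 members had an Isl1 peak, with 106 of the 48295 peaks of the list between them, and 51.9% of the 21027 protein-coding genes compared had at least 1 peak in the same way. The material was the cardiogenic mesoderm and heart region of C57BL/6 embryos at E8.25-E9, with 60 to 80 embryos pooled, cross-linked in 1% formaldehyde for 15 min and precipitated with 2 to 5 µg of an antibody against Isl1, a LIM-homeodomain transcription factor of cardiac progenitor cells. The series holds 1 Isl1 ChIP sample and 1 input sample, and the embryos of both carried no allele or treatment that the labels name. Because 1 list was analysed, there is no replicate error, the input signal was not analysed here, the sequencing depth and the peak heights are unknown here, and every comparison below is a description without a test. A peak list holds no expression of marker genes, so the labelled tissue could not be checked in it. Intervals are 95% Wilson intervals and cover counting error alone.

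SWI/SNF complexes use the energy of ATP to slide or evict nucleosomes. Each is built around a Brg1 (Smarca4) or Brm (Smarca2) ATPase, and the accessory subunits distinguish the BAF form, with Arid1a or Arid1b and a Dpf protein, from the PBAF form, with Arid2, Pbrm1, Phf10 and Brd7. Polycomb repressive complex PRC2 methylates histone H3 at silenced genes, Kdm6 demethylases remove that mark, Ep300 and Crebbp acetylate histones at active enhancers, and histone deacetylases take the acetyl groups away. In the developing heart the SWI/SNF subunit Smarcd3 (Baf60c) is known as a partner of cardiac transcription factors, and class IIa deacetylases as repressors of the muscle factor Mef2.

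Sequence under the peaks is shown for promoter peaks rich in CG dinucleotides and for peaks on long purine runs, which stand for many but not all of the members' peaks. Each line gives the reference strand, 5′ to 3′, of the bases within 100 bp of the peak midpoint in the NCBIM37 genome, the same assembly as mm9. The first 3 are promoter windows without a run of purines or pyrimidines. A run is at least 25 bases of A and G only, or of C and T only, without a break, and a peak is said to have one where it lies within 100 bp of the midpoint. Capitals mark the CG dinucleotides. They lie at chr16:4213429-4213628 (Crebbp), chr10:127896383-127896554 (Smarcc2, with 28 untranslated bases left out) and chr15:96117479-96117678 (Arid2).
Crebbp: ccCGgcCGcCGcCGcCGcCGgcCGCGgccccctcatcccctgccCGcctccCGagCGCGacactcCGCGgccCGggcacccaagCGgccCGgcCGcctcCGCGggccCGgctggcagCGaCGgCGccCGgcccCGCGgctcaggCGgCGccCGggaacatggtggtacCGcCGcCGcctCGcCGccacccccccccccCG
Smarcc2: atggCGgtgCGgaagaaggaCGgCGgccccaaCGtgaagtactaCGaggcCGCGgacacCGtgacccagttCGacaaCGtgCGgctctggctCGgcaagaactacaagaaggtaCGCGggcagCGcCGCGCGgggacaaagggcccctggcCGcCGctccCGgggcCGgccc
Arid2: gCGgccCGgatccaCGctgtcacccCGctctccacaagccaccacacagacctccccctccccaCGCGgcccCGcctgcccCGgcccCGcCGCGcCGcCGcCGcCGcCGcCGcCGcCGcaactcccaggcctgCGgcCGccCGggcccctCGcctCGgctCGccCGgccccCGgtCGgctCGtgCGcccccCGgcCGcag
The next 4 are the closest peaks, by the start sites of the list, of Smarca2 (chr19:26820506-26820705), Dpf3 (chr12:84831089-84831288), Hdac7 (chr15:97648114-97648313) and Actl6b (chr5:137997851-137998050), and capitals mark the longest run in the window. Within the window these runs are 41, 98, 71 and 166 bases long in that order. The Hdac7 run reaches the edge of the window, and the longest run in that whole peak is 95 bases. The Dpf3 peak lay 379 kb upstream of the 5′ end of the GENCODE gene, with Dcaf4 as its closest GENCODE gene, and the Smarca2 and Hdac7 peaks lay inside their genes next to internal starts.
Smarca2: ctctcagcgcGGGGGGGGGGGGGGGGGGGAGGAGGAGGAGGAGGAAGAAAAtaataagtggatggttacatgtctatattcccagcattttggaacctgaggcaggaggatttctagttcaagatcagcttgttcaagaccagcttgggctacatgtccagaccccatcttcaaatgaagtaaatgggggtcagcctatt
Dpf3: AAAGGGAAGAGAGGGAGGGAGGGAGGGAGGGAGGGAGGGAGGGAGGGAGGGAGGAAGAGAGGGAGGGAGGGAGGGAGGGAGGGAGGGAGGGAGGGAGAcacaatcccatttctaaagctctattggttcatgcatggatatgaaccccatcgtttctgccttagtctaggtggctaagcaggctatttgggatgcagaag
Hdac7: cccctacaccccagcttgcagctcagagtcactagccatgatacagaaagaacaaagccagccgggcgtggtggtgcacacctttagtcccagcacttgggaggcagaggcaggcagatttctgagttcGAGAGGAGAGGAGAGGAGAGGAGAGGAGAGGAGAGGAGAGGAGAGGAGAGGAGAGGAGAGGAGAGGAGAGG
Actl6b: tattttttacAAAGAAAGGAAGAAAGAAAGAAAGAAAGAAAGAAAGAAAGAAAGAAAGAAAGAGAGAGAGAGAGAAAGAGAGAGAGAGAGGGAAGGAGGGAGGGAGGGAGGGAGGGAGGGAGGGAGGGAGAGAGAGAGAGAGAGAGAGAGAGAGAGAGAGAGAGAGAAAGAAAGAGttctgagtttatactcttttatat

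By complex, the share of members with a peak was 60% overall (95% interval 44.6 to 73.7%). Of the 21 SWI/SNF subunits 11 had a peak (52.4%, 32.4 to 71.7%), and of the 19 other regulators 13 had one (68.4%, 46.0 to 84.6%). Both intervals include the 51.9% of all protein-coding genes. The groups within them were small: 1 of 2 SWI/SNF ATPases, 4 of 9 core and shared subunits, 4 of 5 BAF subunits, 2 of 4 PBAF subunits and the single non-canonical BAF subunit Brd9 without a peak. Outside SWI/SNF, 3 of 4 PRC2 members, 3 of 3 histone demethylases, 2 of 2 acetyltransferases, 1 of 3 class I deacetylases, 3 of 4 class IIa deacetylases and 1 of 2 CHD remodelers had one, and the muscle methyltransferase Smyd1 did not. Every one of these group intervals included the share of all genes. The smallest groups did so even at 3 of 3 (43.9 to 100%) and 2 of 2 (34.2 to 100%). Intervals this wide cannot tell such a group from the background.

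**Figure D1:**
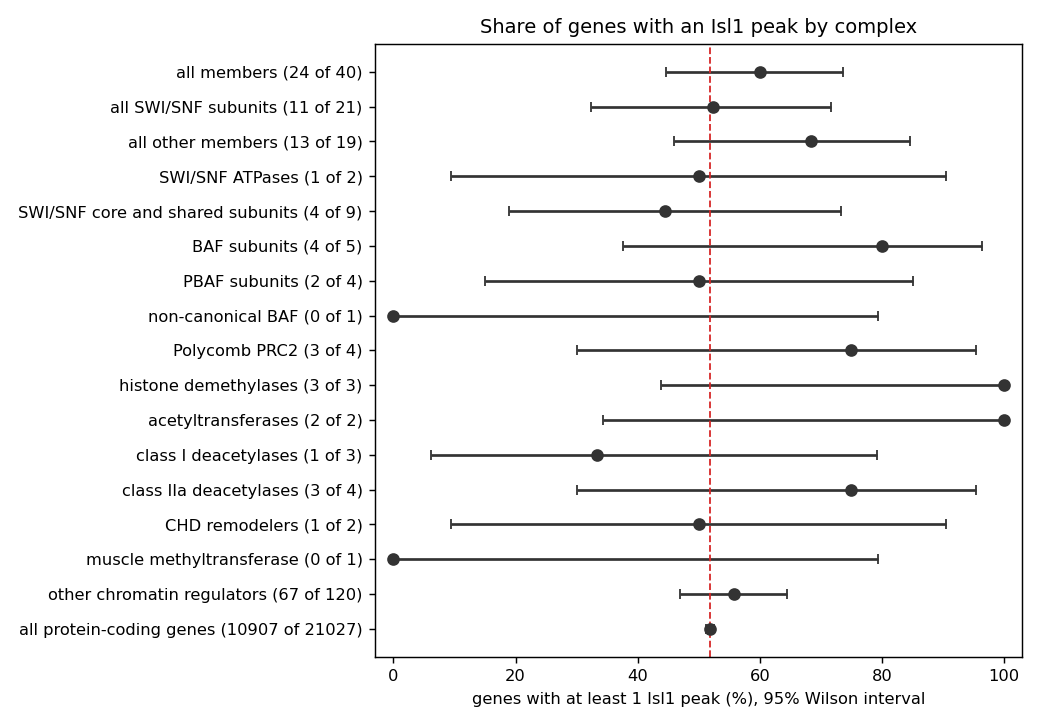
The share of genes with at least 1 Isl1 peak by the closest TSS (x axis, percent) is plotted for the members, each complex, the other chromatin regulators and all protein-coding genes, with the counts in the labels, points for the share and bars for the 95% Wilson interval. The dashed line is the share of all protein-coding genes, 51.9%, and every bar crosses it.

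A fixed list of 120 further chromatin regulators, among them the ISWI, NuRD, PRC1, MLL and DNA methylation proteins, gave 67 genes with a peak (55.8%, 46.9 to 64.4%) and 245 peaks. The 5 with the most peaks were Mbd2, which reads methylated DNA in NuRD, with 23, the PRC2 cofactor Aebp2 with 19, and the remodelers Chd9 with 17, Chd6 with 13 and Smarca1 with 13. Its interval overlapped that of the 40 members.

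The peaks were spread unevenly over the members. The median member had 1 peak and the highest had 15, and 16 members had at least 2 peaks (30.5% of all protein-coding genes did), 8 had at least 5 (10.8% of all genes) and 5 had at least 10 (3.78% of all genes). Smarca2 with 15, Arid1b and Hdac9 with 13 each and Dpf3 with 10 held 51 of the 106 peaks (48.1%), and with Hdac4 (10) and Chd7 (8) the count came to 69 (65.1%). Thus 18 of the 24 bound members shared the remaining peaks.

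**Figure D2:**
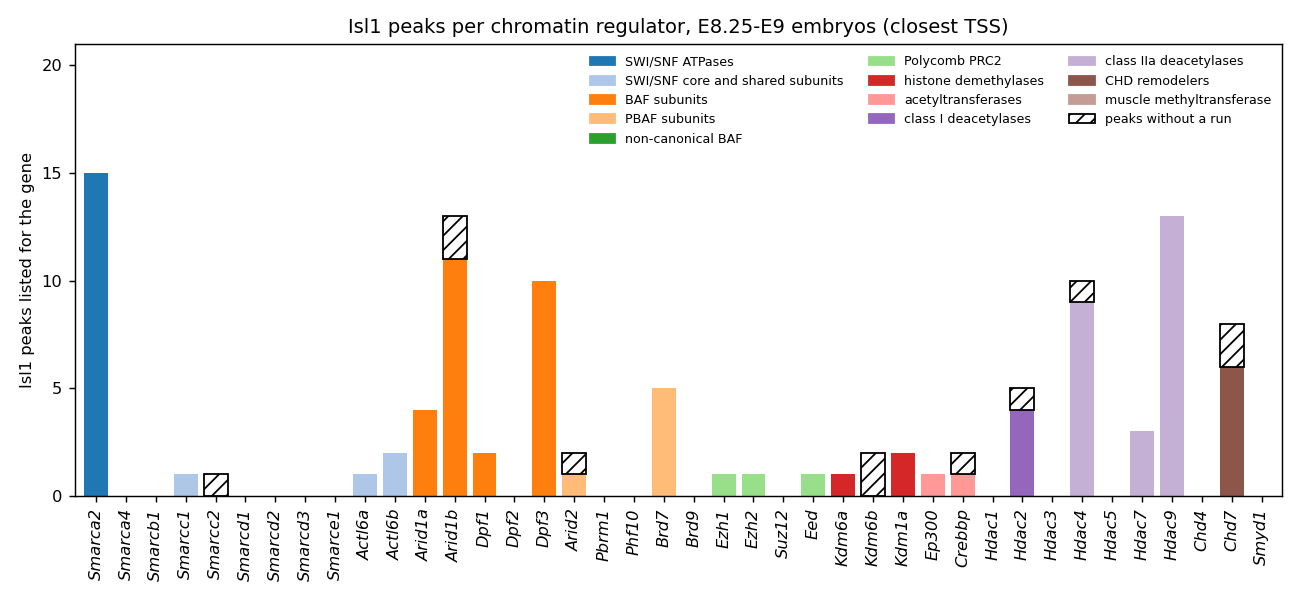
The number of Isl1 peaks listed for each of the 40 members (y axis) is drawn as bars coloured by complex, and the hatched part of a bar is the number of its peaks without a purine or pyrimidine run within 100 bp of the midpoint. Smarca2 is highest at 15, 16 members are at 0, and both peaks of Kdm6b are hatched.

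Among the SWI/SNF ATPases the paralogs were at opposite ends. Smarca2, the Brm ATPase, had 15 peaks, 9 of them within 100 kb of a TSS and all with a run, between chr19:26264257-26264907, 415 kb upstream, and chr19:26820383-26820828, in an intron. The list measured 5 of them from a start site 143 kb downstream of the 5′ end of the GENCODE gene, so the peak given as 2.05 kb upstream is inside the gene body, as are 6 of the 15. Smarca4, the Brg1 ATPase, had none, and the peak of any kind nearest to its TSS lay 69.1 kb away and was listed for Carm1. The stretch of genome closest to a TSS of Smarca2 is larger. At the mean genome density it would hold 12.8 peaks, against 1.42 for that of Smarca4.

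The core and shared subunits had few peaks. Smarcc2, a scaffold subunit, had 1, at chr10:127896062-127896846 over an exon 0.162 kb downstream of the TSS, and its paralog Smarcc1 had 1 in an intron 29.5 kb downstream. Actl6b, the neuronal actin-related subunit, had 2 intronic peaks, at chr5:137997657-137998243 and chr5:138000100-138000412, and Actl6a, its counterpart in progenitor cells, had 1 peak 13.9 kb upstream. The other core genes, Smarcb1, Smarcd1, Smarcd2, Smarcd3 and Smarce1 had none. The nearest peak to these 5 lay between 9.33 kb (Smarce1) and 70.6 kb (Smarcd1) from the TSS. Smarcd3 is a case of assignment: 2 peaks, at chr5:24138168-24138561 and chr5:24147228-24147768, lay 30.5 and 39.7 kb upstream of it and closest to it among protein-coding genes, but were listed for the noncoding 1700022A21Rik.

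Most SWI/SNF peaks belonged to the subunits that define BAF, with 29 of 56. Arid1b, a DNA-binding subunit, had 13, of which 10 lay upstream and 3 in its introns, from 26.7 to 190 kb from the TSS used in the list. The closest of these to a GENCODE TSS of Arid1b, in an intron, was 7.4 kb from it. Arid1a, the alternative to Arid1b in the complex, had 4, all wider than the median peak of 466 bp, at chr4:133292420-133293203 in an intron and at chr4:133318421-133319203, chr4:133356162-133356694 and chr4:133358811-133359568 upstream. Dpf3, a histone reader subunit of heart and muscle BAF, had 10, but their distances were measured from a start site 377 kb upstream of the 5′ end of the GENCODE model. The Dpf3 peaks ran from 2.50 kb upstream of that start to 394 kb downstream, where the farthest lay in an intron of the GENCODE gene. Dpf1, a neuronal reader, had 2 peaks, the closer at chr7:30082070-30082741, 6.62 kb upstream, and Dpf2, the widely expressed reader, had none.

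In PBAF, Brd7, a bromodomain subunit, had 5 peaks, all intergenic and upstream at 15.8, 22.0, 67.0, 71.1 and 74.3 kb. The last 3 of these sat within a stretch from chr8:90952802 to 90960583. Arid2, the subunit that marks PBAF, had a promoter peak at chr15:96117192-96117965 and an intronic peak 58.9 kb downstream. Pbrm1 and Phf10 had none, with the nearest peak 38.3 and 93.8 kb away.

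PRC2 had 1 peak for each of 3 members. The catalytic subunits Ezh1 and Ezh2 carried an intronic peak each, 23.6 and 22.9 kb downstream of the TSS used in the list. The same peaks lay 0.457 kb (Ezh1) and 5.54 kb (Ezh2) from the closest GENCODE TSS of the gene. The histone-reading subunit Eed had a peak at chr7:97137194-97137587, 7.90 kb upstream. Suz12, the remaining core subunit, had none within 77.9 kb. The enzymes that remove methyl groups had 5 peaks: Kdm6a had 1 in an intron 56.3 kb downstream, Kdm6b 2 and Kdm1a 2, at 22.4 and 64.3 kb downstream. The closer Kdm1a peak lay 3.15 kb from a GENCODE TSS of the gene. Both Kdm6b peaks, at chr11:69251531-69252114 and chr11:69258910-69259416, were in introns of the neighbouring gene Dnahc2, had no run within 100 bp of the midpoint, and held runs of 43 and 69 bases elsewhere in the peak. Of the acetyltransferases, Crebbp had 2 peaks, at chr16:4213177-4213879 and 3.85 kb upstream, and Ep300 had 1, 37.7 kb upstream.

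Deacetylases of class I had 5 peaks in 1 of 3 genes, and those of class IIa 26 peaks in 3 of 4. Class I Hdac2 had 5 peaks, from 59.4 to 193 kb from the TSS used in the list, with 2 in introns of Hs3st5. The closest of these to a GENCODE TSS of Hdac2 was 42.6 kb from it. Hdac1 and Hdac3 had none and no peak within 100 kb. Among the class IIa enzymes, Hdac9 had 13 peaks, Hdac4 10, Hdac7 3 and Hdac5 none. Hdac9 peaks lay 10.1 kb or more from the start used, and for 6 of the 13 that start was 388 kb upstream of the GENCODE 5′ end. For Hdac4 it was 31.9 kb upstream, and the peak at chr1:94076287-94076935 was 0.307 kb downstream of it, whereas the closest peak to the GENCODE TSS was 4.23 kb away. The Hdac7 peak at chr15:97647970-97648457 was 2.92 kb upstream of a start inside the gene. Chd7, a CHD remodeler of neural crest and heart development, had 8 peaks, with 2 on both sides of its TSS, 3 more from 26.4 to 48.2 kb upstream and 3 from 228 to 257 kb downstream. Chd4, the NuRD ATPase, had none within 147 kb.

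Across the 106 peaks, the median distance to the TSS was 57.2 kb. It was 58.8 kb for all peaks of the list and 52.5 kb for those listed for protein-coding genes. By the start sites of the list, 12 members had a peak within 10 kb (25.7% of all genes did). Within 100 kb 24 members had one (51.2% of all genes), and within 1 kb 5 members did (5.15% of all genes). By the start sites of the list, upstream peaks were 65 of 106 (61.3%), against 47.5% of all peaks. Among the 65 were 5 peaks in introns of Smarca2 and an intronic Hdac7 peak. Most Dpf3 peaks upstream of the GENCODE gene counted as downstream. Of the 106 peaks, 67 (63.2%) were wider than the median peak, against 49.9% of all. By place, 72 peaks were intergenic, 33 intronic and 1 exonic, and 27 were inside the member itself. Peaks of one member share their surroundings, and whether upstream and wide peaks were more frequent at the members was not tested.

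**Figure D3:**
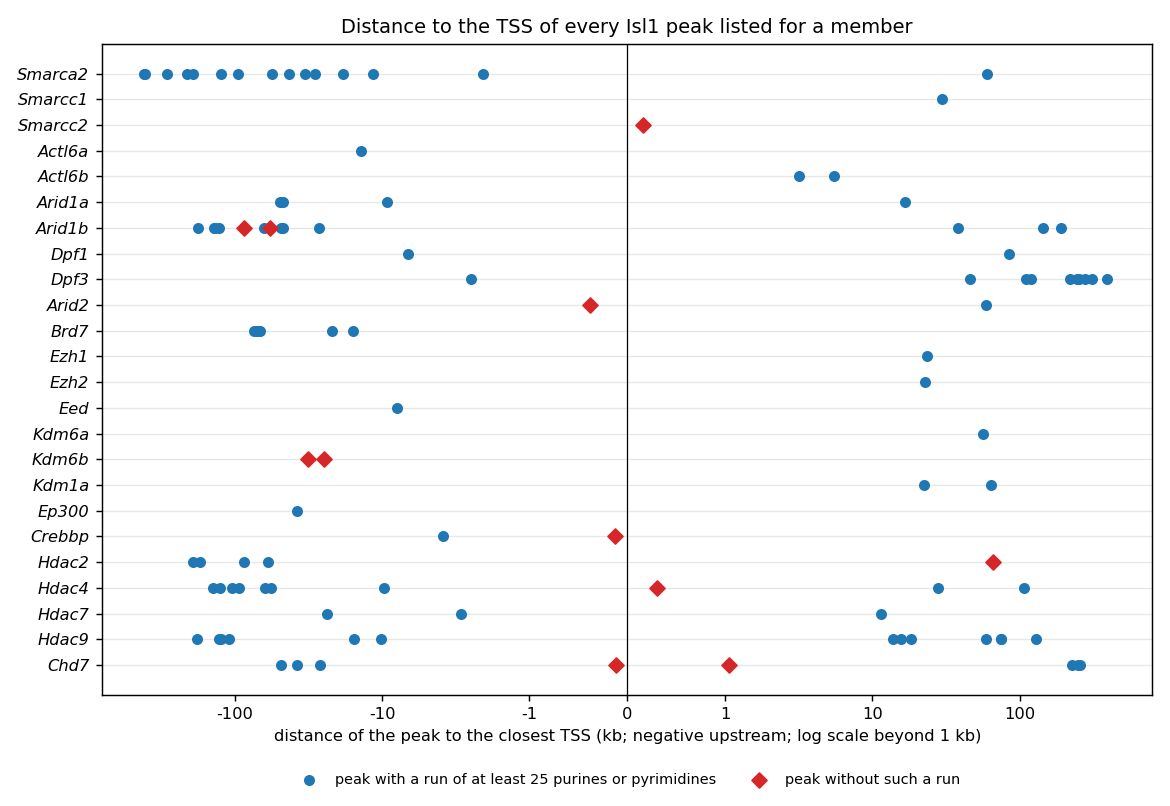
Each point is an Isl1 peak of one of the 24 bound members, at its distance from the closest TSS (x axis, kb, negative upstream, log scale beyond 1 kb), with circles for peaks with a purine or pyrimidine run within 100 bp of the midpoint and diamonds for peaks without one. All 5 peaks within 1 kb of the start used in the list are diamonds.

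Of the members' peaks, 95 of 106 held a run (89.6%, 82.4 to 94.1%), and 94.1% of all peaks did. On the coding strand of the member, 38 runs were of purines and 57 of pyrimidines. Promoter peaks are those within 1 kb of the start used in the list. No run lay within 100 bp of the midpoint in the 5 of Chd7, Crebbp, Smarcc2, Hdac4 and Arid2. Of the 1245 peaks of the list that close to a start, 49.3% had none either. The Arid2 peak held a run of 27 bases outside the window, and the other 4 promoter peaks held none anywhere. The 5 promoter windows were 72.5 to 86.5% G and C and held 28 to 39 CG dinucleotides, against medians of 64% and 9 for all peaks that close. A second peak of Chd7 at 1.06 kb, 0.099 kb from a GENCODE TSS, also had no run, with 81% G and C and 38 CG. The Ezh1 peak, 0.457 kb from a GENCODE TSS, held a run of 165 bases in its window. The Hdac4 promoter peak was not within 1 kb of a GENCODE TSS. The absence of runs from all 5 promoter peaks therefore holds for the start sites of the list alone. Farther out, 5 of 56 member peaks from 10 to 100 kb and 0 of 34 beyond 100 kb had no run. Of all peaks at those distances, 4.97% and 4.19% had none. For the 0 of 34, an upper limit of 8.82% was taken as 3 counts over the 34 peaks, not as a Wilson limit. It treats the peaks as independent, which peaks of one member are not. The 5 from 10 to 100 kb were 2 of Arid1b, 2 of Kdm6b and 1 of Hdac2. Those of Arid1b lay 57.9 and 86.8 kb upstream, the second with 83% G and C. The Hdac2 peak lay 66.3 kb downstream with 36.5% G and C. Over the whole peak, 4 of these 11 peaks held a run, those of Arid2 and Kdm6b and the Arid1b peak at 57.9 kb. By the 11 peaks 8 members had a peak without a run, and 9.65% of all genes did.

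**Figure D4:**
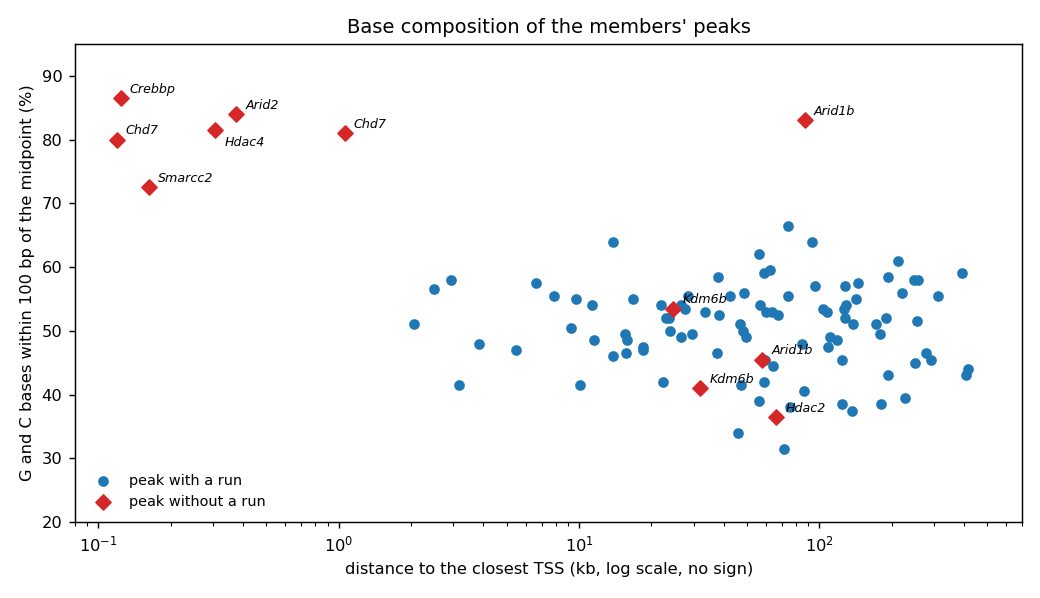
The share of G and C bases within 100 bp of the midpoint (y axis, percent) is plotted against the distance to the closest TSS (x axis, kb, log scale) for the 106 peaks, with circles for peaks with a run and named diamonds for the 11 without. The promoter peaks by the start sites of the list lie at 72.5% or above, and only a single peak beyond 2 kb, of Arid1b, does too.

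TAAT or ATTA, the core of LIM-homeodomain sites, was within 100 bp of the midpoint in 34 member peaks (32.1%) and in 35.3% of all peaks, both strands searched. GAGAGAGA or TCTCTCTC was in 44 (41.5%) and in 55.0% of all peaks, and such an element can be part of a run. CACACACA or TGTGTGTG was in 11 (10.4%) and in 18.4%. A match is a description of letters and does not show that a factor bound there.

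A gene with few neighbours collects more peaks under the closest-TSS rule, so the peaks were also counted per territory, the stretch of genome closer to a GENCODE TSS of the gene than to that of any other protein-coding gene. The members with a peak had a median territory of 120.7 kb and those without one 41.3 kb, against 45.5 kb for all genes. Of the 13 members with a territory of at most 50 kb, 3 had a peak in it, and 29.9% of all such genes did, while all 14 members above 100 kb had one, as did 90.7 to 100% of genes of that size. Over the 40 members the number of listed peaks followed the territory with a Spearman rho of 0.75 and the gene length with 0.52, values given as a description since genes with larger territories have more room for peaks. Per Mb of territory the members had 19.4 peaks and all genes 18.9, with 23.5 for the SWI/SNF subunits and 15.0 for the other members. With the peaks listed for the members in place of all peaks in the territory, the values were 17.3 for the SWI/SNF subunits and 17.0 for the other members. The difference between the SWI/SNF subunits and the other members thus depended on the assignment. The 18.9 for all genes counts every peak of the list, including those listed for noncoding genes, so it is not the background for the values by listed peaks. Smarca4, with 75.2 kb, had the largest territory among members without a peak, and Actl6b, with 18.2 kb, the smallest among those with one.

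**Figure D5:**
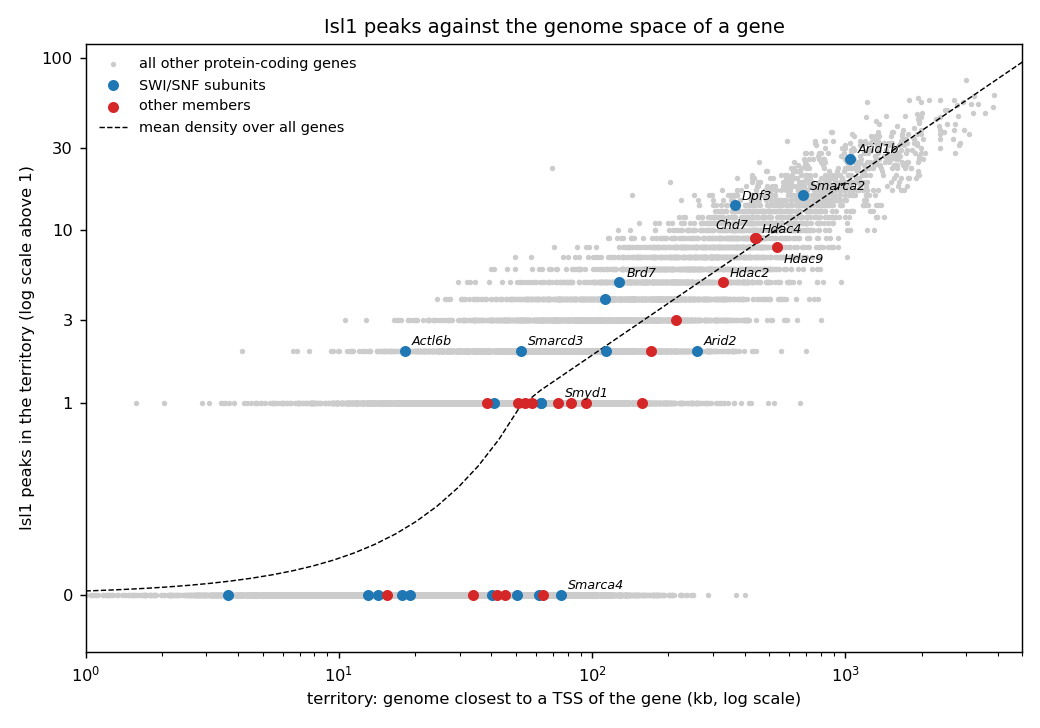
The number of peaks in a gene's territory (y axis, log scale above 1) is plotted against the size of the territory (x axis, kb, log scale) for SWI/SNF subunits, other members and all other protein-coding genes, with the dashed line at the mean density over all genes, 18.9 peaks per Mb. Among the members with many peaks, Hdac4 (20.5 per Mb) and Chd7 (20.4) lie near the line. Smarca2 (23.5), Arid1b (24.9), Dpf3 (38.3) and Brd7 (39.0) lie above it, and Hdac9 (14.9) and Hdac2 (15.3) below it.

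Peaks near a member were not always listed for it. By the closest GENCODE TSS or by position within the gene, 33 peaks concerned 11 members but were listed for another gene. Conversely, 17 of the 106 listed peaks had another gene as the closest in GENCODE, 7 of 13 for Hdac9, 4 of 10 for Dpf3, 2 of 10 for Hdac4, 2 of 3 for Hdac7 and 1 of 2 each for Kdm6b and Kdm1a. By that rule Hdac9 had 8 peaks. In Arid1b, 2 intronic peaks were listed for Ldhal6b and 11 upstream peaks for the noncoding 4930517M08Rik, and in Dpf3, 3 intronic peaks were listed for the noncoding 1700085C21Rik. Of these 3, 1 lay 1.62 kb downstream of a GENCODE TSS of Dpf3, closer than any peak listed for Dpf3. Further peaks outside the gene had Dpf3 as the closest GENCODE gene and were also listed for 1700085C21Rik. Inside Hdac9, 2 intronic peaks were listed for Twist1 and, inside Hdac4, 1 was listed for Twist2, genes of bHLH factors. Smyd1, a methyltransferase of heart and skeletal muscle, had no listed peak, but chr6:71265484-71266090 lay in its intron, 6.41 kb downstream of its TSS, and was listed for Cd8b1. With the closest GENCODE TSS, 26 of 40 members had a peak (65%), and Smarcd3 and Smyd1 were those gained, while 54.6% of all genes in that annotation had one.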

How the data were processed

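Isl1 ChIP was done on pooled C57BL/6 embryo tissue, and the authors made 1 deposited list of peaks, per the labels with Bowtie2, Picard 1.136, MACS and mm9. The deposited columns used hold the position of each peak and its signed distance in bp to the closest TSS, with a RefSeq accession and symbol. Versions other than that of Picard, the read depth and peak heights are not given in the sources used here, and the input sample was not analysed here. The 40 members and all lists were chosen with earlier results of these data known. Members were matched by symbol, and 10907 of the 11088 named genes with an NM accession matched the 21027 RefSeq protein-coding genes (assembly GRCm38.p6, names only). Sequence and gene models came from NCBIM37 and GENCODE vM1. Windows were 200 bp around the midpoint, and runs, counted in these windows, had at least 25 bases. Members were described by position if they had a peak within 10 kb, at least 4 peaks or a peak without a run. Scripts (Python 3.11.15, pandas 2.3.3) were tested on simulated data. Alternatives were peaks within 10 or 100 kb, wider peaks, run-free peaks and other assignments. Expression values were not used. The sequence and coordinates of the Chd7 peaks near its TSS are not reported here.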

Additional observations from a re-analysis of the deposited data

How the results depend on the processing

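No paired analysis was possible because 1 list and no replicate sample was analysed. Of 35 alternative values 21 stayed within the set limits, which were 1.5 times the main count or, for the share with a run, its interval. Restricting to peaks within 10 kb gave 12 members, 16 member peaks, 37 other regulators and 5396 genes. Restricting to peaks without a run gave 8 members, 11 member peaks, 32 other regulators and 2029 genes, a median distance of 1.06 kb and 2.11 peaks per Mb against 1.12 for all genes. Peaks wider than the median gave 67 member peaks and 12.3 per Mb, against 9.43 for all genes, and peaks within the gene span or 10 kb of it gave 52 member peaks. At least 2 peaks per gene left 37 other regulators. Matching by accession or older symbol gave 23 members, since the accession listed for Chd7 is not in the table used. The main limits are the single list without a replicate, the input not analysed here, and a closest-TSS rule whose start sites lay over 10 kb from the GENCODE 5′ end for 5 members (33 peaks). Of the 106 member peaks, 54 had a listed distance within 1 kb of that to the closest GENCODE TSS of the same gene. The counts by distance and of upstream peaks therefore depend on the start sites used.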
